A study of Mus musculus with 6 samples.

Results

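CCR4-NOT is the multi-subunit complex that shortens the poly(A) tails of cytoplasmic mRNAs, and 10 genes of its subunits were followed here: Cnot1, Cnot2, Cnot3, Cnot4, Cnot6, Cnot6l, Cnot7, Cnot8, Cnot9 and Cnot10. They were picked by symbol from the deposited gene table, in which all 10 were found among 28136 genes with reads. The values are ribosome footprints, which are the pieces of mRNA left after nuclease digestion because a ribosome covered them. The source was Lin-c-Kit+ cells of mice, which the labels call hematopoietic stem cells, at 12 days after irradiation with 4.5 Gy. The WT (wild-type) group and the Mov10 knockout (KO) group had 3 libraries each. Both groups were irradiated, and no unirradiated cells were analysed here. How the knockout was made, the age and the sex of the mice, and whether the libraries come from separate animals were not stated in the labels. The p-values therefore measure the spread between these libraries, which may be technical.

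Shortening of the poly(A) tail is the first and often the slowest step of mRNA decay. CNOT1 is the scaffold on which the other subunits dock, a CAF1-type nuclease (CNOT7 or CNOT8) binds its middle part and carries a CCR4-type nuclease (CNOT6 or CNOT6L), and CNOT2 and CNOT3 form the NOT module at its C-terminal end. RNA-binding proteins and the microRNA machinery bring the complex to chosen mRNAs, and MOV10, an RNA helicase known from RNA silencing, binds Argonaute proteins of that machinery.

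The libraries held 2260348 to 2499634 reads in WT and 1118345 to 1352517 in the knockout, so depth and genotype went together. Levels are normalized reads, which are read counts per gene divided by a size factor per library, and means are given ± SD with n = 3 libraries per genotype. Mov10 itself had 110, 106 and 104 normalized reads in WT and 51.0, 89.0 and 46.3 in the knockout, lower in all 3 knockout libraries but short of the threshold (limma adjusted p = 0.0598). The progenitor markers Kit, Cd34, Myb, Gata2, Mpo, Flt3 and Cd48 were all read, with a summed level of 15252 to 18114 in WT and 33065 to 34012 in the knockout. Most of this sum is Mpo, which rose from a mean of 12660 to 29006, and Myb and Cd48 were also called higher. Kit (1099 and 1122), Cd34 (99.5 and 73.9), Flt3 (208 and 158) and Gata2 (61.5 and 55.1) were not called. Markers of other cells were also read. The 5 B cell markers summed to between 148 and 177 in WT and between 359 and 378 in the knockout, and the 7 erythroid markers to 481 to 543 in WT and 1551 to 1593 in the knockout. Among these, the genes called higher included Cd79a, Pax5, Slc4a1 and Epor, and Hba-a1 was called lower. Of the B cell markers 3 were called higher and 0 lower, and of the erythroid markers 3 higher and 1 lower. Cd79b (36.9 to 23.9), Ms4a1 (10.2 and 10.1) and Hbb-bs (4.84 to 0.894) were not called, so neither rise was shared by every marker. The 8 neutrophil markers summed to between 8285 and 9019 in WT and between 7357 and 7842 in the knockout, and the 7 monocyte and macrophage markers to 1029 to 1228 in WT and 919 to 999.6 in the knockout. The neutrophil sum joins opposite differences, since S100a8 (2246 to 371), Mmp8 and Cxcr2 were called lower and Mmp9 (692 to 1436), Retnlg and S100a9 higher. Of the monocyte and macrophage markers Ly6c2 alone was called, from 324 to 21.4. Their sum also joins opposite differences. The mean of Cd68 was lower too (36.5 to 16.4), and those of Csf1r (306 to 401), Adgre1 (169 to 223), C1qa, C1qb and Mrc1 were higher. The 4 eosinophil, basophil and mast cell markers summed to between 12394 and 15453 in WT and between 17920 and 19963 in the knockout. Of these Prg2, Cpa3 and Mcpt8 were called higher, and Epx (3941 and 4274) was not called. The 4 megakaryocyte markers summed to 336 to 412 in WT and 466 to 724 in the knockout. Most of this sum is Itga2b (329 to 505), which alone was called higher. Pf4 (9.46 and 20.3), Gp1ba (20.5 and 18.1) and Ppbp (11.7 and 21.7) were not called. The 5 T cell markers summed to between 49.1 and 66.2 in WT and between 55.0 and 85.7 in the knockout, the only marker list with overlapping groups. No marker was at 0 in all libraries. The part of these marker differences in the results below was not tested, and in such bulk samples fewer cells of a type and fewer footprints per cell cannot be told apart.

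Some CCR4-NOT genes fell in the knockout and none was called higher. Cnot2 of the NOT module fell 4.58-fold, the CAF1-type nuclease gene Cnot7 2.12-fold and the CCR4-type nuclease gene Cnot6 1.71-fold. The other 7 members were not called, among them the scaffold gene Cnot1 at 627 ± 11.0 in WT and 720.3 ± 69.7 in the knockout. All 10 members passed the filter on low values, and limma called 3 of them lower and 0 higher at an adjusted p under 0.05. Over all 17114 genes tested, 10.9% were called lower and 10.3% higher. Among the 6483 genes within the members' range of mean level, 42.3 to 674 normalized reads, 13.9% were called lower and 18.2% higher. The median log2 fold change, knockout minus WT, was -0.67 over the members, -0.17 over all genes tested and -0.04 over the genes within the members' range. Without WT replicates 1, 2 and 3 in turn, 1, 0 and 0 members were called lower, while the calls of lower genes over all genes dropped from 1871 to 501, 406 and 403. Scaled by library totals, 4 members were lower, and over all genes 1280 were higher and 2852 lower in place of 1757 and 1871.

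**Figure D1:**
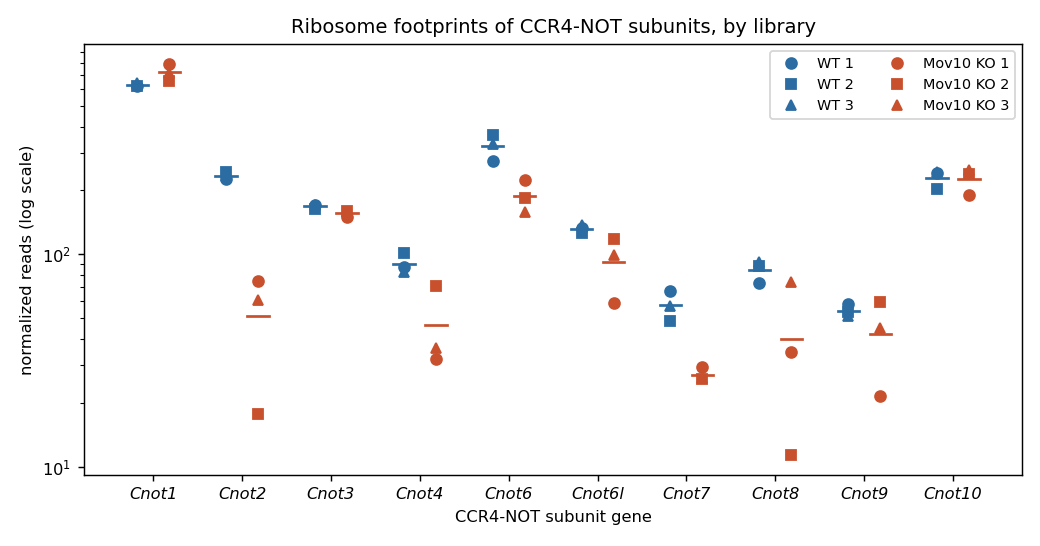
Normalized reads (log axis) of the 10 CCR4-NOT subunit genes in each library, WT in blue and Mov10 KO in red, with the replicate number as the symbol and a bar at the mean. The knockout points lie below all WT points for 6 genes and above them for Cnot1, and scatter most for Cnot8 and Cnot2. Of all tested genes 22.9% lie below in this way, and of the genes of similar level 25.7%.

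Cnot2 encodes a NOT-box subunit that, with CNOT3, binds the C-terminal part of the scaffold. Cnot2 (ENSMUSG00000020166, chromosome 10, 116321066 to 116417416, minus strand, GRCm39 as for all gene positions) had 226, 244 and 234 normalized reads in the WT libraries and 75.1, 17.8 and 60.8 in the knockout libraries. The WT libraries were close together and all knockout libraries lay far below them, replicate 2 the lowest. These values rest on 343 to 398 reads per WT library and on 56, 11 and 42 reads in the knockout libraries. The mean was 235 ± 9.19 in WT and 51.2 ± 29.8 in the knockout, a fitted log2 fold change (log2 difference) of -2.40 (SE 0.46, 95% interval -3.46 to -1.35, adjusted p = 0.00860). The adjusted p rose to 0.0564, 0.0590 and 0.0580 without WT replicates 1, 2 and 3, with log2 fold changes of -2.43, -2.37 and -2.41, and its span over 19 alternatives was 6.23e-09 to 0.0590. Without knockout replicate 2 the log2 fold change was -1.78 (adjusted p = 0.00110). The spread of the knockout libraries, 58.2% of their mean, exceeded the 21.0% that counting error alone gives at these read numbers.

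Over the 6 libraries, the protein-coding genes whose log2 values ran most like those of Cnot2 were Srgn, Bora and Pfn1, with Pearson correlations of 0.998, 0.997 and 0.996 among 6180 candidates. The libraries fall into 2 genotype groups, and any gene that differs between them as Cnot2 does scores high, so these correlations are a description with no test.

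Cnot3, the partner of Cnot2 in the NOT module, differed far less. Cnot3 (ENSMUSG00000035632, chromosome 7, 3648267 to 3664108) had 170.1, 164 and 171 normalized reads in WT and 150.2, 160.1 and 158 in the knockout. All knockout libraries lay just below all WT libraries. The log2 fold change was -0.11 (SE 0.13, 95% interval -0.41 to 0.19, adjusted p = 0.604), so the interval does not reach the change of Cnot2. The difference between Cnot2 and Cnot3 also shows within each library. There were 36.2, 39.5 and 36.5 reads of Cnot2 per 100 reads of the scaffold gene Cnot1 in WT and 9.48, 2.72 and 8.50 in the knockout, against 27.3, 26.5 and 26.7 in WT and 19.0, 24.5 and 22.1 in the knockout for Cnot3. Counts on both genes were therefore lower relative to Cnot1 in every knockout library, 5.42-fold in the mean for Cnot2 and 1.23-fold for Cnot3 (exact two-sided permutation p = 0.1 for each, the smallest that 3 against 3 libraries allow).

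Cnot6 encodes a CCR4-type nuclease of the endonuclease-exonuclease-phosphatase family. Cnot6 (ENSMUSG00000020362, chromosome 11, 49562330 to 49603550, minus strand) had 274, 365 and 332 normalized reads in WT and 225, 184 and 158 in the knockout. The groups did not overlap, and both had a similar relative spread. The mean fell from 324 ± 46.1 to 189 ± 34.0, a log2 difference of -0.78 (SE 0.17, 95% interval -1.17 to -0.39, adjusted p = 0.0147). The call was lost without WT replicates 2 and 3, with adjusted p of 0.0907 and 0.0845 (0.00103 to 0.0907 over 19 alternatives).

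Cnot6l, its paralog, was not called. Cnot6l (ENSMUSG00000034724, chromosome 5, 96218192 to 96312030) had 132, 126 and 137 normalized reads in WT and 59.0, 118 and 99.8 in the knockout. All knockout libraries lay below all WT libraries, replicate 2 only just. The log2 fold change was -0.57 (SE 0.26, 95% interval -1.16 to 0.02, adjusted p = 0.162), an interval that includes the change of Cnot6. It was -0.28 without knockout replicate 1 (adjusted p = 0.211) and -0.77 without replicate 2 (adjusted p = 0.0576). Cnot6 made up 67.4%, 74.3% and 70.8% of the reads of both paralogs in WT and 79.2%, 61.0% and 61.2% in the knockout. These shares overlapped between the genotypes (70.8% ± 3.44 and 67.1% ± 10.5, exact two-sided permutation p = 0.6). No change in the ratio of the paralogs was detectable in these libraries.

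Cnot7 encodes a CAF1-type nuclease of the DEDD family, which also links the CCR4-type nuclease to the scaffold. Cnot7 (ENSMUSG00000031601, chromosome 8, 40945581 to 40968888, minus strand) had 66.9, 48.5 and 57.2 normalized reads in WT and 29.5, 25.9 and 26.0 in the knockout. The knockout libraries were close together and all below WT. Their spread, 7.54% of their mean, was under the 23.3% that counting error alone gives at 16 to 22 reads per library. The log2 fold change was -1.05 (SE 0.29, 95% interval -1.70 to -0.39, adjusted p = 0.0345), from 16 to 22 reads per knockout library. Without WT replicates 1, 2 and 3 the adjusted p was 0.175, 0.101 and 0.147, and between 0.0154 and 0.175 over 18 alternatives. The 5′ end of Cnot7 overlaps Vps37a on the other strand, which was also lower, at 53.3 ± 10.7 in WT and 17.5 ± 3.91 in the knockout (adjusted p = 0.0178). Whether counting used the strand is not given in the sources used here, so reads of this overlap cannot be told apart.

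Cnot8, the paralog of Cnot7, was the most scattered member. Cnot8 (ENSMUSG00000020515, chromosome 11, 57994979 to 58009420) had 73.4, 87.8 and 92.0 normalized reads in WT and 34.9, 11.3 and 73.8 in the knockout. Knockout replicate 3 lay just above the lowest WT library and the other knockout libraries lay below it. The knockout libraries held 26, 7 and 51 reads of Cnot8, a spread of 78.9% of the mean where counting error gives 25.9%. The log2 fold change was -1.40 (SE 0.57, 95% interval -2.71 to -0.10, adjusted p = 0.120), with adjusted p of 0.0226 to 0.327 over 19 alternatives. Single knockout libraries set its size, which was -0.71 without replicate 2 (adjusted p = 0.160) and -2.02 without replicate 3 (adjusted p = 0.0226). Cnot7 made up 47.7%, 35.6% and 38.4% of the reads of both paralogs in WT and 45.8%, 69.6% and 26.1% in the knockout. With 48, 23 and 69 reads in the knockout libraries, the exact 95% binomial intervals of the last 3 shares were 31.4% to 60.8%, 47.1% to 86.8% and 16.3% to 38.1%, which cover counting error only. The paralog share did not differ between genotypes beyond this spread (40.5% ± 6.34 and 47.2% ± 21.8, exact two-sided permutation p = 0.8).

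The 4 nuclease genes together had 87.6 to 101 reads per 100 reads of Cnot1 in WT, against 44.0 to 52.0 in the knockout. The groups lay far apart, with means of 95.2 ± 7.03 and 48.7 ± 4.16, 1.96-fold lower for KO (exact two-sided permutation p = 0.1, the smallest possible). This ratio is taken within a library and does not depend on the scaling between libraries. It does depend on Cnot1, whose mean on normalized reads was 1.15-fold higher for KO. On that scale the denominator therefore adds to the 1.96-fold difference. Relative to Cnot1, 34.4% of 6482 genes of similar level also lay fully below WT. Of the 4 nuclease genes, Cnot6 and Cnot7 were called lower, and Cnot6l and Cnot8 were not called.

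The remaining subunits were not called. Cnot1 (ENSMUSG00000036550, chromosome 8, 96446079 to 96534092), the scaffold, had 624, 619 and 639.8 normalized reads in WT and 793, 653 and 715 in the knockout. It was the only member with all knockout libraries above all WT libraries, as were 16.9% of all genes tested. Its log2 fold change was 0.19 (SE 0.09, 95% interval -0.02 to 0.40, adjusted p = 0.177), and turned to -0.04 with library totals and -0.15 after cyclic loess. Mir7073, a microRNA gene inside Cnot1 on the same strand, had 0.853 ± 0.325 normalized reads in WT libraries and 14.0 ± 4.58 in KO libraries (adjusted p = 0.0130). Its WT mean lies under the WT floor of 3 reads, 1.84 to 2.04 normalized reads, so no fold is given. How reads shared by Mir7073 and Cnot1 were assigned is not given in the sources used here. Cnot10 (ENSMUSG00000056167, chromosome 9, 114414946 to 114469252), which docks on the N-terminal part of the scaffold, had 242, 204 and 245 normalized reads in WT and 190.4, 239 and 250.3 in the knockout. The groups overlapped, with a log2 difference of -0.03 (SE 0.15, 95% interval -0.37 to 0.32, adjusted p = 0.923), whose sign turned under some alternatives. Cnot11, the N-terminal partner of Cnot10, was not called either, at 56.2 ± 9.88 in WT and 43.4 ± 16.9 in the knockout (adjusted p = 0.429).

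Cnot4 encodes an E3 ubiquitin ligase with a RING domain that binds the complex loosely in human cells. Cnot4 (ENSMUSG00000038784, chromosome 6, 34999000 to 35110659) had 87.0, 102 and 82.4 normalized reads in WT and 32.2, 71.2 and 36.2 in the knockout. All knockout libraries lay below all WT libraries, but replicate 2 stood well above the other knockout libraries. The log2 fold change of -1.03 (SE 0.32, 95% interval -1.77 to -0.29) missed the threshold narrowly, at an adjusted p of 0.0544, and passed it in 8 of 19 alternatives (0.00687 to 0.221). These were library totals (0.0256), TMM scaling (0.0425), edgeR (0.0461), DESeq2 (0.0451), limma-voom (0.0320), a mean of at least 50 normalized reads (0.0283), the replicate block (0.0372) and the fit without knockout replicate 2 (log2 fold change -1.37, adjusted p = 0.00687).

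Cnot9 (ENSMUSG00000026174, chromosome 1, 74545217 to 74570001) encodes the CAF40 subunit, which binds the TNRC6 proteins of the microRNA machinery. It had 58.4, 53.4 and 51.1 normalized reads in WT and 21.5, 59.8 and 44.9 in the knockout, with overlapping groups and a fitted log2 difference of -0.48 (SE 0.39, 95% interval -1.36 to 0.41, adjusted p = 0.425). Without knockout replicate 1 this was -0.06 and without replicate 2 it was -0.78, neither called. It lies within Usp37 on the other strand, whose level was 157 ± 19.5 in WT and 325.9 ± 84.6 in KO libraries (adjusted p = 0.00949), so its reads cannot be assigned with certainty.

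**Figure D2:**
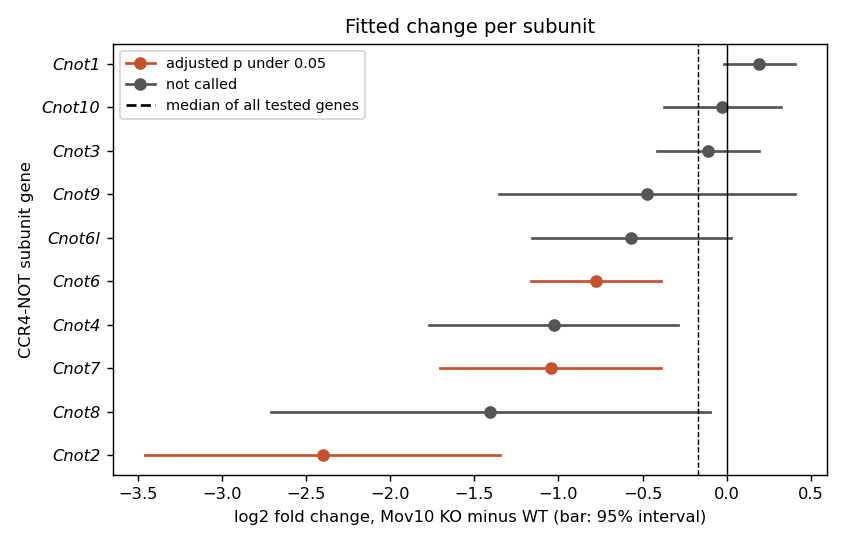
Log2 fold change, Mov10 KO minus WT, of each CCR4-NOT subunit gene (points) with its 95% interval (bars), ordered by size. Cnot2, Cnot7 and Cnot6 (red) passed the threshold, Cnot8 and Cnot4 did not although their intervals lie below 0, and the dashed line marks the median of all tested genes at -0.17.

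Read against the scaffold gene of the same library, 7 of 9 subunits were lower in every knockout library than in any WT library, with Cnot9 and Cnot10 the exceptions. Such a full separation below WT, relative to Cnot1, was seen in 34.4% of 6482 genes of similar level. On normalized reads it held for 6 of 10 members, against 25.7% of 6483 genes of similar level and 22.9% of all genes tested. Cnot1 made up 31.9%, 30.7% and 31.4% of the members' reads in WT and 49.2%, 42.4% and 44.1% in the knockout, and Cnot2 made up 11.7% ± 0.363 and 3.19% ± 1.82. The 10 members held 0.125%, 0.131% and 0.133% of all reads in WT and 0.0888%, 0.0852% and 0.0891% in the KO libraries (exact two-sided permutation p = 0.1, the smallest possible). On normalized reads their sum was 2003 ± 44.6 in WT and 1591 ± 43.6 in the knockout, 1.26-fold lower, whereas the share of all reads was 1.48-fold lower, so that the size depends on the scaling.

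**Figure D3:**
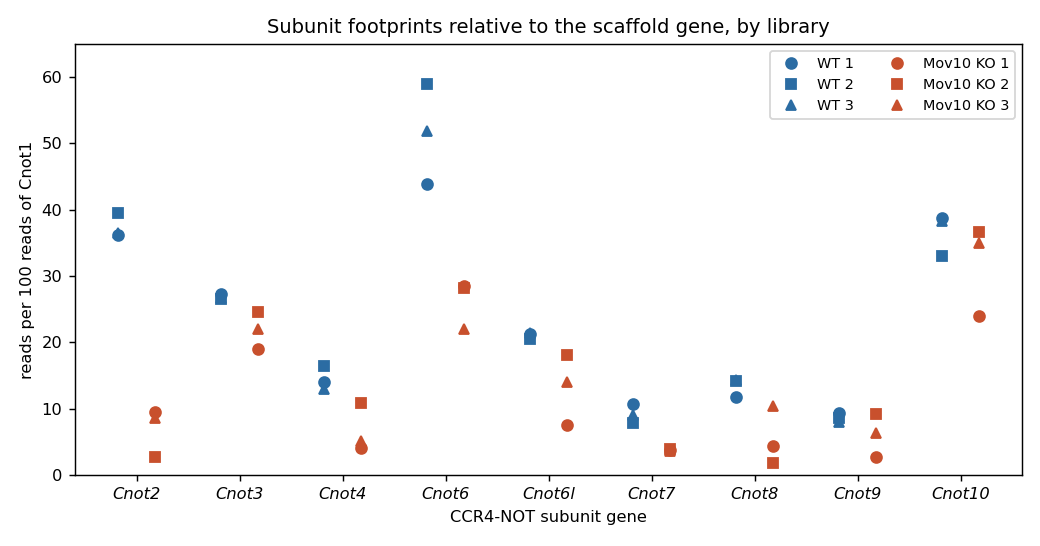
Reads of each subunit gene per 100 reads of the scaffold gene Cnot1 in the same library, WT in blue and Mov10 KO in red, with the replicate number as the symbol. Cnot2 and Cnot6 drop by the most reads, from 36.2 to 39.5 and 43.9 to 59.0 in WT to 2.72 to 9.48 and 22.1 to 28.4 in the knockout, and Cnot9 and Cnot10 overlap.

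Levels of different subunits can be compared only per length, here as normalized reads per kilobase of the gene length that the authors list. In WT the order was Cnot2 (57.6 ± 2.26), Cnot6 (49.0 ± 6.98), Cnot1 (36.5 ± 0.643), Cnot10 (34.2 ± 3.39), Cnot8 (32.0 ± 3.70), Cnot3 (23.6 ± 0.547), Cnot9 (14.2 ± 0.980), Cnot6l (12.8 ± 0.513), Cnot7 (9.88 ± 1.58) and Cnot4 (9.25 ± 1.04). In this order Cnot10 overlapped with Cnot1 above it and with Cnot8 below it, and Cnot7 overlapped with Cnot4. No other neighbours overlapped. In the knockout Cnot1 was first at 42.0 ± 4.06 and Cnot10 followed at 33.7 ± 4.75, while Cnot2 was sixth at 12.6 ± 7.32. The knockout levels of Cnot10 and Cnot6 overlapped, and from Cnot3 down to Cnot7 each gene overlapped with the next. Cnot1 did not overlap with Cnot10, nor Cnot6 with Cnot3. The listed gene lengths are not stated to be coding lengths, and a subunit with long untranslated parts would then be placed too low.

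The members also differed in how far the libraries of a genotype scattered. The SD was 1.76% (Cnot1) to 16.0% (Cnot7) of the mean in WT and 3.32% (Cnot3) to 78.9% (Cnot8) in the knockout, and was larger in the knockout for 9 of 10 members, Cnot7 being the exception. The median of this spread was 8.40% in WT and 25.4% in the knockout, close to 8.02% and 23.3% over the genes of similar level. Knockout replicate 2 was the lowest knockout library for 4 members (Cnot1, Cnot2, Cnot7 and Cnot8), the highest for 4 (Cnot3, Cnot4, Cnot6l and Cnot9) and the middle one for Cnot6 and Cnot10.

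In the authors' deposited table, 4 members had an adjusted p under 0.05 and were lower, as were 5.19% of its 28136 genes and 15.3% of those within the members' range of mean level. None was higher at that threshold, against 6.57% of its genes. The 4 lower members were Cnot2 (log2 fold change -2.04, adjusted p = 4.69e-09), Cnot6 (-0.76, adjusted p = 0.000933), Cnot7 (-0.98, adjusted p = 0.0392) and Cnot4 (-0.90, adjusted p = 0.0412), all lower. The test behind the authors' deposited table is not given in the sources used here.

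Promoter windows of called members are shown because Cnot2 and Cnot6 were both called lower. Windows of 250 bases before an annotated start were taken from the RefSeq table of build GRCm38.p6, which held 14 windows for 8 of the members (Cnot1 and Cnot7 not among them). Capitals mark the GC box GGGCGG and the CCAAT box CCAAT on either strand, and all sequences run 5′ to 3′ on the strand of the gene.
Cnot2, chr10:116580537-116580786, minus strand: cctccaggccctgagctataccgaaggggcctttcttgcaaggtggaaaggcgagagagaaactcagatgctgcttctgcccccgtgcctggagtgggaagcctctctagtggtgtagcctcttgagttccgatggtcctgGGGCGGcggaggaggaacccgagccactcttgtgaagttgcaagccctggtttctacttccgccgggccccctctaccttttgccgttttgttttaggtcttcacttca
Cnot2, chr10:116527950-116528199, minus strand: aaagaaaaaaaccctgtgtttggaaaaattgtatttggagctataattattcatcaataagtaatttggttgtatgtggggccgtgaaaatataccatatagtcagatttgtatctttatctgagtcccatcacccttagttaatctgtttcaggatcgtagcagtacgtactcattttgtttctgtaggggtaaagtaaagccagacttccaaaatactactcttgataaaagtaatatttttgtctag
Cnot6, chr11:49712723-49712972, minus strand: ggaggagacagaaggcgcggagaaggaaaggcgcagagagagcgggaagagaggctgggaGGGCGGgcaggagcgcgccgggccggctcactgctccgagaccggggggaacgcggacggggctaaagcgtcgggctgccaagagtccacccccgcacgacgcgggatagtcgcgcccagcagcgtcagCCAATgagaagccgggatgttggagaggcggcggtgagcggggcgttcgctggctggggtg

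The first Cnot2 window holds a GC box and 57.6% G and C, the second holds none of the motifs searched and 33.2% G and C, and the Cnot6 window holds a GC box, a CCAAT box and 70.8% G and C. The median of all 32851 windows was 52.4%. A GC box was found in 11 of the 14 member windows, at least once in each of the 8 members, against 32.7% of all windows. It was thus present before members that were called lower and before members that were not, such as Cnot3 and Cnot10. The member windows are not all separate. Neighbouring windows of Cnot6l share bases, and a GC box in overlapping windows of Cnot8 counts in each. All windows were not matched to the members in base content, which in member windows ran from 33.2% to 82.4% G and C. A CCAAT box was found in the windows of Cnot3 and Cnot6, against 33.8% of all windows. The ETS core CCGGAAG was found in those of Cnot10 and Cnot6l, against 6.91%, and the E-box CACGTG in that of Cnot4, against 6.02%. The TATA box TATAAA (12.4% of all windows), the CRE TGACGTCA (1.55%) and the YY1 motif AAGATGGCG (0.606%) were in no member window. No motif overlapped another kind of motif in the windows shown.

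The wider deadenylation pathway was followed with 37 further genes, of which limma called 5 lower and 2 higher, with a median log2 fold change of -0.23. The 5 lower genes are 13.5% of the 37, against 10.9% of all genes tested. Without genes at 0 in every knockout library, which pass the filter through WT alone, 4 of 35 (11.4%) were lower, against 8.14% of 16329 genes, so these shares are near the background. Without WT replicates 1, 2 and 3 in turn, 1 pathway gene was lower each time and 0, 0 and 1 were higher, and with library totals 10 were lower and 1 higher. Of 8 other deadenylases tested, Pan3 and Pan2 were lower and 0 were higher, with a median of -0.18. PAN2 and PAN3 form a separate deadenylase that trims long tails, PAN2 as the nuclease and PAN3 as its RNA- and PABP-binding partner.

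Pan3 had 425, 496 and 439 normalized reads in WT and 201, 220.0 and 145 in the knockout. The groups lay far apart, with a log2 difference of -1.28 (SE 0.17, adjusted p = 0.00139), and the call held in all 19 alternatives, the highest adjusted p being 0.0232. Pan2 had 158, 184 and 169 normalized reads in WT and 126, 92.2 and 110.0 in the knockout, without overlap. Its log2 fold change was -0.64 (SE 0.17, adjusted p = 0.0316), and without WT replicates 1, 2 and 3 the adjusted p was 0.0916, 0.149 and 0.125 (0.00957 to 0.149 over 19 alternatives). The other deadenylase genes Parn, Noct, Angel1, Angel2, Pde12 and Toe1 were not called.

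Of 23 adaptors, recruiters and partners of CCR4-NOT, 3 were lower (13.0%) and 2 higher, with a median log2 fold change of -0.36. Over all genes tested, 10.9% were lower and 10.3% higher. Without the 2 genes at 0 in every knockout library, Nanos1 and Nanos3, 2 of 21 adaptors and recruiters were lower (9.52%), with a median of -0.23. The matching share over all genes was 8.14%. Btg1, an antiproliferative adaptor that binds the CAF1-type nucleases, had 149, 152 and 159 normalized reads in WT and 65.7, 102 and 89.7 in the knockout. The groups were well separated, with a log2 difference of -0.86 (SE 0.20, adjusted p = 0.0192). Ddx6, a helicase that CNOT1 binds, fell from 603 ± 9.09 to 465 ± 40.8, 1.30-fold (adjusted p = 0.0249). Neither call held when any WT library was omitted, with adjusted p of up to 0.101 for Btg1 and 0.112 for Ddx6, and over 19 alternatives it ranged from 0.00708 to 0.101 and from 0.00195 to 0.232.

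Eif4enif1, which encodes the eIF4E-binding protein 4E-T, a partner of DDX6, went the other way. It had 224, 244 and 262 normalized reads in WT and 373, 545 and 401 in the knockout, with all knockout libraries above WT and a fitted log2 difference of 0.83 (SE 0.16, adjusted p = 0.00793). Without WT replicates 1 and 2 the adjusted p was 0.0538 and 0.0504 (2.26e-05 to 0.0665 over 19 alternatives). Rc3h1, which encodes the RNA-binding protein Roquin-1, rose from 131 ± 11.3 to 198 ± 25.8 (adjusted p = 0.0351). The call of Rc3h1 was lost without each WT library and without knockout replicates 1 and 2, with adjusted p between 0.0550 and 0.147 (0.0136 to 0.154 over 19 alternatives).

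Nanos3, a germ cell regulator, was called lower at 5, 10 and 2 reads in the WT libraries and 0 in each knockout library (adjusted p = 0.0431). Its WT mean of 3.58 normalized reads lies under the knockout floor of 3 reads, 4.02 to 4.85 normalized reads, so no fold is given, and the call was lost in 11 of 16 alternatives. The microRNA adaptors Tnrc6a, Tnrc6b and Tnrc6c were not called, with log2 fold changes of -0.23, -0.03 and -0.14. Of 5 genes of poly(A)-binding proteins and their partners none was called, with a median log2 fold change of 0.03. Pabpc1, the main cytoplasmic poly(A)-binding protein, had 1841, 1945 and 2001 normalized reads in WT and 1868, 1865 and 1793 in the knockout (adjusted p = 0.471).

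**Figure D4:**
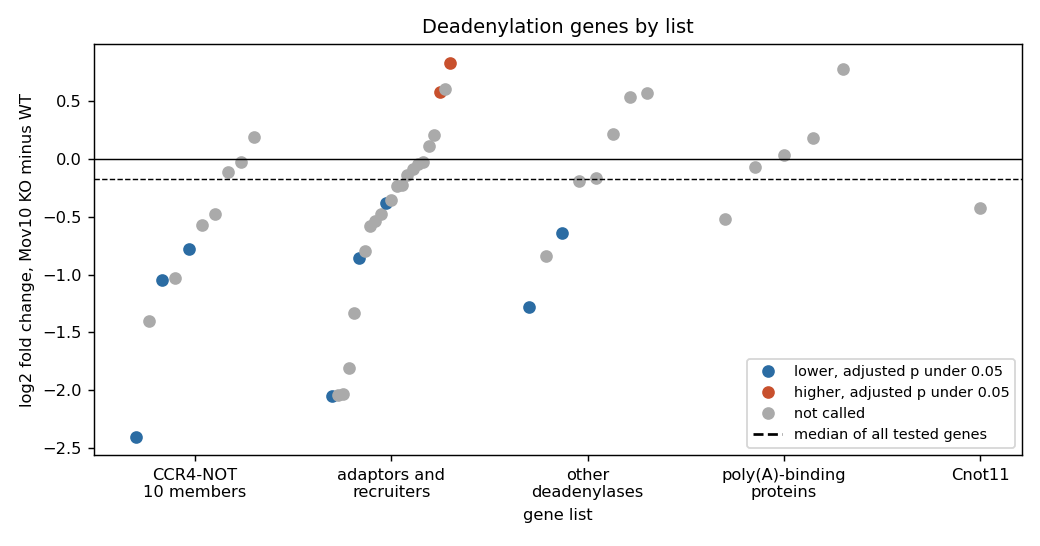
Log2 fold change, Mov10 KO minus WT, of the 10 CCR4-NOT members and of 37 other deadenylation genes by list, 1 point per gene ordered within its list, coloured by the limma call at an adjusted p under 0.05. Lower calls are 3 of 10 members, 3 of 23 adaptors and recruiters and 2 of 8 other deadenylases, and higher calls are 2 adaptors and recruiters. Of all 17114 genes tested, 10.9% were called lower and 10.3% higher.

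A footprint level rises with mRNA abundance as well as with ribosome load per mRNA. Since mRNA levels were not analysed here, none of these differences can be read as a difference in translation per mRNA. None is a measurement of the proteins.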

How the data were processed

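Footprints of 24 to 36 nt gave 6 libraries, 3 per genotype, on GRCm39 per the submitters' processing notes. The aligner, counter and annotation are not stated in the labels. The signal values deposited by the authors behave as counts scaled by a library-wide size factor: 99.98% of values above 0 were multiples of the library's smallest value, to within 0.05 of a read. Division by that value recovered the reads. The deposited log2 fold changes, p-values and other columns such as gene lengths were used as listed by the authors.

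Folds are ratios of group means and can differ from the fitted log2 fold changes. The main fit was limma 3.58.1 (R 4.3.3) on log2(value + 1), where the added 1 understates changes of low genes. This fit gave larger log2 fold changes than DESeq2 for Cnot2 (-2.40 and -2.18) and Cnot8 (-1.40 and -1.07), and a smaller one for Cnot7 (-1.05 and -1.08). Genotype was its single term, the prior variance followed a trend, and genes under a mean of 1 normalized read were filtered out. Benjamini-Hochberg adjustment ran over all 17114 genes, with calls at an adjusted p under 0.05. The genes off their step, 5 in number, were left out. Shares and ratios used exact two-sided permutation tests over 20 regroupings. The members, lists and tests were chosen with earlier results of these data known. All members were named, and in each pathway list up to 6 called genes. The overlapping genes Mir7073, Vps37a and Usp37 fall outside that rule and were chosen after their values were seen. Alternatives were other scalings (upper-quartile, library totals, TMM, cyclic loess), limma-voom, edgeR 4.0.16 and DESeq2 1.42.0 on the recovered reads, filters, a pseudocount of 0.1, thinning, a replicate block and each library left out. Reads carry no molecular identifiers, so intervals cover counting error only. Figures were drawn with matplotlib 3.10.9. Single values of some marker genes are not reported here.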

Additional observations from a re-analysis of the deposited data

How the results depend on the processing

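Members called lower numbered 2 to 4 under the 13 alternatives that kept all libraries and the threshold, against 3, and 0 to 4 when each library was left out, with 0 called higher throughout. At an adjusted p under 0.01, 1 member was called lower, as were 1 pathway gene lower and 1 higher, and 496 genes lower and 931 higher over all genes. Leaving out each library gave 1 to 6 pathway genes lower and 0 to 2 higher, and 403 to 2497 genes lower and 836 to 2090 higher over all genes, the low counts all without a WT library. Pathway calls, 5 lower and 2 higher, were 10 and 1 with library totals, 3 and 1 with no filter on low values, and 2 and 0 with no variance trend, and the higher calls were 1 with TMM scaling and 1 with a replicate block. Over all genes 2852 were lower with library totals and 1158 with a mean of at least 50 normalized reads, where fewer genes were tested (6307). Otherwise the cause was not tested.

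Cnot1 turned to -0.037 with library totals and -0.15 after cyclic loess. Cnot10, near 0, turned to 0.010 with upper-quartile scaling and ranged from -0.11 to 0.095 when each library was left out, above 0 without WT replicates 1 and 3 and without knockout replicate 1. The median log2 fold change of the 17114 genes, -0.17, was -0.37 with library totals, -0.305 with a pseudocount of 0.1, -9e-04 after cyclic loess and 0.001 with DESeq2 (0.21 over the 28131 genes DESeq2 fitted). Over the 10891 genes edgeR tested it was -0.05, and over the 6307 with a mean of at least 50 normalized reads 0.01. Same-numbered libraries did not deviate together (correlations of -0.03, -0.01 and -0.02), so these values show no pairing by number. They cannot exclude one, since differently numbered libraries were not compared. A replicate block called 4 members lower, losing Cnot7 (adjusted p = 0.0877) and gaining Cnot4 (0.0372) and Cnot8 (0.0293). Cnot7 was also lost after cyclic loess, with limma-voom, with no filter and after thinning (adjusted p of 0.0538 to 0.0864), and Cnot6 with no variance trend (0.0855). Cnot7 and Cnot9 fell under the filter of a mean of at least 50 normalized reads and were not tested there. With that filter, and with limma-voom, the members called lower were Cnot2, Cnot6 and Cnot4. Knockout depth limits the rarer members, with as few as 7 reads of Cnot8.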
